A study of Homo sapiens with 12 samples.

Results

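TSS-distal regions that gained both the histone variant H2A.Z and its acetylated form H2A.Zac were examined in K562, a line from a human chronic myeloid leukemia with erythroid and megakaryocytic character. A region was included when the authors' comparison called its H2A.Zac higher in ΔTRRAP than in WT, when it lay outside every 2-kb window centered on a GENCODE gene TSS, and when regions with higher H2A.Z in ΔTRRAP covered at least 25% of its length. The regions were thus selected on the likelihood ratios of both marks and on their position, and the rule left 2812. These are 11.3% of the 24844 regions that gained H2A.Zac and 18.2% of the 15440 TSS-distal ones (Wilson 95% confidence interval, 17.6 to 18.8%). In all, 94586 H2A.Zac regions and 63442 H2A.Z regions were listed. The share called higher in ΔTRRAP was 26.3% for H2A.Zac, 14.1% for H2A.Z and 24.6% for TSS-distal H2A.Zac.

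Both lines carry a degradation tag on the endogenous EP400 gene product and were treated with 500 nM dTAGV-1 for 24 h to deplete it, so the controls share the tag and the treatment. The WT line expresses full-length EP400 from the AAVS1 locus, and the ΔTRRAP line expresses EP400 from which the SANT and HD domains, the TRRAP-binding region, had been deleted. The 12 libraries comprise 2 biological replicates each of input, H2A.Z ChIP and H2A.Zac ChIP per line. Each line is 1 clone, so the effects of the deletion and of the clone cannot be told apart. The authors merged the replicates before comparing the lines, and a region carries a single value, the log10 likelihood ratio between them. These merged lists give no value per replicate, spread or sequencing depth, and the replicate libraries were not analysed here, so no test across conditions is given.

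H2A.Z is a variant of histone H2A that is placed into nucleosomes by remodelers such as the TIP60 complex, whose scaffold is EP400, and by SRCAP. It is found at promoters and at distal regulatory elements, and its acetylated form marks active ones. TIP60 also holds the acetyltransferase for H2A.Z, and its largest subunit TRRAP is a docking surface for transcription factors, of which MYC, a factor that binds the E-box, is a classical example. In K562 cells, distal elements are often bound by GATA1 and its relatives, which recognize short GATA sequences.

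Further kinds of TSS-distal H2A.Zac region serve for comparison. A total of 5433 regions lost both marks in ΔTRRAP by the mirror image of the rule, 14815 were unchanged in both, 4070 gained H2A.Zac over unchanged H2A.Z, and 7978 gained H2A.Zac and touched no listed H2A.Z region. Regions are not replicates of a condition. The 95% confidence intervals in parentheses cover counting error only, and the leading differences are given with the number of chromosomes that show the same sign or the range with each chromosome left out.

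The DNA under some of the regions is given first, since the classes differ in short sequence motifs. The next 4 sequences are the 300 bp at the center of the regions with the highest H2A.Zac ratios among those that gained both marks and hold a GATA motif, defined here as AGATAA or TGATAA on either strand. They are from hg38, plus strand, and capitals mark the motif. They are named by the nearest protein-coding gene. They were picked for the motif, so its presence in them is no result.
NDUFA4 region, first: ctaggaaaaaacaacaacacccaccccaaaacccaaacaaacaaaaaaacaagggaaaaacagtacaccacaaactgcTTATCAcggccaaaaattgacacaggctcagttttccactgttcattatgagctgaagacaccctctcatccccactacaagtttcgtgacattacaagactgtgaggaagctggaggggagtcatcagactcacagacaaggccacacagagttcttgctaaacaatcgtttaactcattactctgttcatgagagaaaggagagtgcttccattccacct
NDUFA4 region, second: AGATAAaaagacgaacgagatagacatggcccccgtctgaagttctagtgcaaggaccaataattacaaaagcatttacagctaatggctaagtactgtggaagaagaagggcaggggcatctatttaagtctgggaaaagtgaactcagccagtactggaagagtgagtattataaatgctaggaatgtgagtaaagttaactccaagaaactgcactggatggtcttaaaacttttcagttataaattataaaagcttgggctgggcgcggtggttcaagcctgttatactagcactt
ZNF608 region: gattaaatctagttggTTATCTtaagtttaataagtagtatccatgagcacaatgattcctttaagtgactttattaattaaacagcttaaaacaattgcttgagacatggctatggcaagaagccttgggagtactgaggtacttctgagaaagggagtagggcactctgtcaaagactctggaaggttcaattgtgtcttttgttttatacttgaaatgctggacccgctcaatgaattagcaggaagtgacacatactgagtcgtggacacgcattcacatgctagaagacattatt
STC2 region: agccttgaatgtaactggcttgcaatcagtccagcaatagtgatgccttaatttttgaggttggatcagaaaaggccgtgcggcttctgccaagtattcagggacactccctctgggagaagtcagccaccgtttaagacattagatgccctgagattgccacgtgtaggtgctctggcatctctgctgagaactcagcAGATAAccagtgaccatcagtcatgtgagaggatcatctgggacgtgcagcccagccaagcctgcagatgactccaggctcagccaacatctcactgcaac

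For contrast, the next sequences are the centers of the regions with the highest H2A.Zac ratios among those that lost both marks and hold the E-box CACGTG, which is marked in capitals.
ADGRD1 region: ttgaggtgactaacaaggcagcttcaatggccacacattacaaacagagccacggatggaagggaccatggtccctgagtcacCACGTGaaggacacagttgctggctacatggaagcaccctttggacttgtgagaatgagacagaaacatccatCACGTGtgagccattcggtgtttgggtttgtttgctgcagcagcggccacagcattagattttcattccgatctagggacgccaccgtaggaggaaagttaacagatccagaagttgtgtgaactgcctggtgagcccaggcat
CAMK2N1 region: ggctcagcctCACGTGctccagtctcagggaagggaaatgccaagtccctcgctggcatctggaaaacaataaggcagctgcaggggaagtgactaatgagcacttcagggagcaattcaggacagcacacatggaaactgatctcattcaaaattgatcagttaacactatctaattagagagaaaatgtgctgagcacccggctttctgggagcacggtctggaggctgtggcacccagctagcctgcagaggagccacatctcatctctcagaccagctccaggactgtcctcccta

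The first pair lies 749 kb and 780 kb downstream of NDUFA4, which encodes a respiratory chain subunit, in intergenic DNA at chr7:10189958-10190257 and chr7:10159151-10159450. Their H2A.Zac ratios were 105 and 99.4, and their H2A.Z ratios were 28.6 and 28.1. The ZNF608 window, chr5:125093756-125094055, is in an intron of LINC02240, 345 kb upstream of the zinc finger gene ZNF608, and had an H2A.Zac ratio of 94.0 and an H2A.Z ratio of 7.58. The STC2 window, chr5:173455106-173455405, is intergenic and 125 kb upstream of STC2, the gene of the secreted glycoprotein stanniocalcin 2, with ratios of 88.5 and 29.1. It also holds the E-box cacgtg, in lower case. The regions that lost both marks, chr12:130920260-130920559 and chr1:20494451-20494750, lie 32.9 kb upstream of ADGRD1, an adhesion receptor gene, and 7.76 kb upstream of CAMK2N1, a kinase inhibitor gene. Their H2A.Zac ratios were 97.2 and 78.7.

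The ratios that chose the regions are given as a description. The H2A.Zac ratio ranged from 3.23 to 126 with a median of 12.2 (interquartile range, 7.61 to 21.0), and 1709 regions (60.8%) reached 10. The highest H2A.Z ratio within a region ranged from 3.14 to 53.4 with a median of 6.35. Both ratios reached 10 in 434 regions (15.4%). The libraries of the marks differ in antibody and in a depth that is not known, so their ratios are not on one scale. Over the 2812 regions, Spearman's rho was 0.60 between the ratios and 0.51 between the H2A.Zac ratio and the width. These are correlations across regions that share libraries, and a deeply covered region scores higher for the same fold change. The reason for the correlation with width was not tested.

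**Figure D1:**
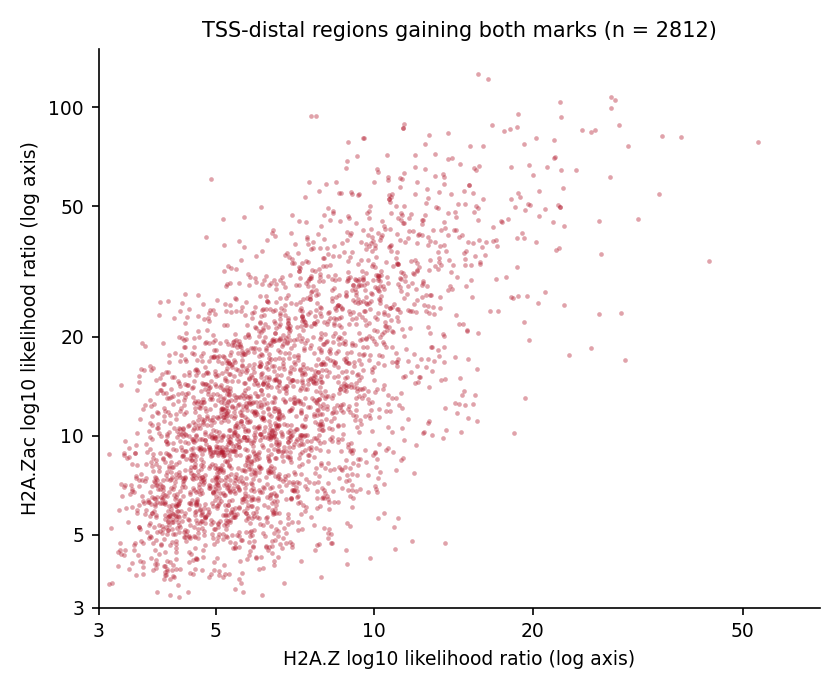
Each point is one of the 2812 TSS-distal regions that gained both marks, with the log10 likelihood ratio for H2A.Z on the horizontal axis and for H2A.Zac on the vertical axis, both on log scales. Regions with a higher ratio for one mark tended to have a higher ratio for the other (Spearman's rho 0.60).

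The median width was 1037 bp, from 250 to 22000 bp, with 407 regions under 500 bp and 175 of at least 2.5 kb. Gained H2A.Z covered a median of 62.5% of a region, and in 2430 regions (86.4%) it did so as a single stretch. Near the rule's boundaries, the 174 regions covered by 25 to 30% had a median H2A.Zac ratio of 11.0, and the 140 regions just outside, covered by 20 to 25%, had 9.99. The 132 regions less than 1500 bp from a TSS but outside its window had a median ratio of 7.46, and 258 regions inside a window but at least 500 bp from the TSS had 7.12. The ratios on the 2 sides of each boundary were thus close. The 12628 TSS-distal regions that gained H2A.Zac without meeting the H2A.Z condition had a lower median ratio, 6.91, and were narrower, 623 bp.

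The surroundings of the gained regions, like those of regions that lost both marks, often held chromatin that had not changed. Of the 2812 regions, 1226 (43.6%, 41.8 to 45.4%) also touched an unchanged H2A.Z region, and in 910 (32.4%) an unchanged region took up 25% or more of the length. None touched a lost H2A.Z region. Gain and constancy of the variant were thus often found side by side. These shares were not counted for regions that lost both marks. Widening the view by 5 kb to each side, 49.3% of the gained regions had an unchanged H2A.Zac region, 60.6% an unchanged H2A.Z region, 13.6% a lost H2A.Zac region and 4.16% a lost H2A.Z region in reach. Among regions that lost both marks, 51.9% had an unchanged H2A.Zac and 66.6% an unchanged H2A.Z region in reach. A gained H2A.Zac region was in reach of 12.6% of them, and a gained H2A.Z region of 4.16%. For 934 gained regions, 33.2% (31.5 to 35%), no unchanged or lost region of either mark lay within 5 kb. The share with such isolation was 28.7% (27.5 to 29.9%) among regions that lost both marks, counted in the mirror image. Within 1 kb the order was the other way, at 39.3% (37.5 to 41.1%) for regions gaining both marks and 41.9% (40.5 to 43.2%) for regions losing both.

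Regions that gained both marks lay farther from protein-coding TSSs than the other classes did. Their median distance was 15.6 kb to the nearest gene TSS (95% confidence interval, 14.5 to 16.8 kb) and 49.6 kb to the nearest protein-coding TSS (45.5 to 53.4 kb). For regions that lost both marks these medians were 11.2 kb and 26.9 kb, and for unchanged regions 12.6 kb and 33.2 kb. For regions that gained H2A.Zac without H2A.Z they were 14.5 kb (13.9 to 15 kb), an interval that overlaps that of the regions gaining both marks, and 41.6 kb (39.8 to 43.6 kb). Leaving out any 1 chromosome, the median of the regions that gained both marks stayed between 47.8 and 51.1 kb.

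The classes also differed at long range. A total of 859 of the 2768 gained regions on annotated chromosomes lay over 100 kb from any protein-coding TSS, 31.0% (29.3 to 32.8%), against 19.3% (18.2 to 20.3%) of those that lost both marks and 23.3% (22.6 to 24.0%) of unchanged ones. Over 500 kb the shares were 7.44%, 2.73% and 4.17%. Regions that gained H2A.Zac without H2A.Z were closer, with 27.5% (26.5 to 28.4%) over 100 kb and 5.70% over 500 kb. The distance also differed between regions of low and high H2A.Zac ratio, which differ in width as well. In 4 classes of 703 regions each, ordered from the lowest to the highest H2A.Zac ratio, the median distance to a protein-coding TSS was 35, 43.6, 51.6 and 74.5 kb, and the share over 100 kb was 24.6, 26.6, 30.7 and 42.5%. The median width of these classes was 608, 1003, 1159 and 1429 bp, and its part in the distances was not tested. Among regions that lost both marks, divided in the same way, the shares were 17.5, 18.2, 17.1 and 24.2%. These classes were drawn after the data had been seen.

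**Figure D2:**
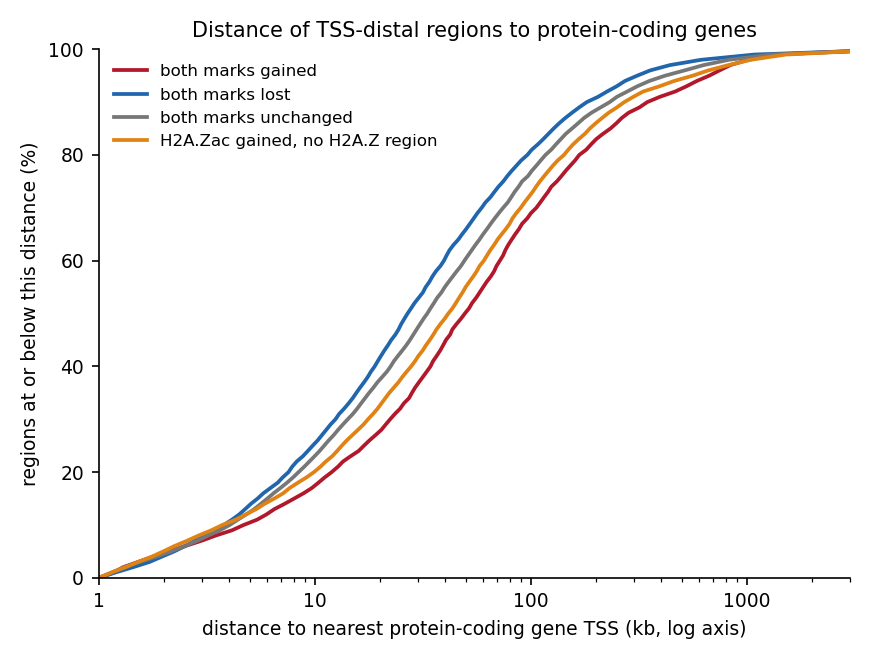
Cumulative share of TSS-distal regions (vertical axis, %) by distance to the nearest protein-coding TSS (horizontal axis, kb, log scale), for 4 classes. The curve for regions that gained both marks runs to the right of the others over most of the range, with a median of 49.6 kb against 26.9 kb for regions that lost both marks.

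Of the same 2768 regions, the centers of 1555 (56.2%, 54.3 to 58.0%) fell in introns, 229 (8.27%) in exons of any transcript, 56 of these in coding sequence, and 984 (35.5%) between genes. The intron share was 41.2% for regions that lost both marks and 48.7% for unchanged ones, below the gained regions, but 64.7% for regions that gained H2A.Zac without H2A.Z, above them. Another region of the same class lay within 10 kb for 21.6% of the gained regions (20.1 to 23.1%) and for 35.7% of the lost ones, a larger class in which neighbors are more likely.

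The balance of gain and loss differed between chromosomes. Of all TSS-distal regions that changed in both marks, 34.1% (33.1 to 35.1%) were gains, and the median over chromosomes 1 to 22 and X was 34.4%. On chromosome 20 there were 18 gains and 255 losses, 6.59% (4.21 to 10.2%), and on chromosome 19 there were 41 gains and 437 losses, 8.58% (6.39 to 11.4%). Gains outnumbered losses on chromosome 13, with 82 against 57 or 59.0% (50.7 to 66.8%), and on chromosome 6, with 337 against 314 or 51.8% (47.9 to 55.6%), where the interval includes equal numbers. Chromosome 5 had 202 of each. Chromosome 6 also had the highest density of gained regions, 1.97 per Mb, against a median of 0.833 and a lowest value of 0.279 on chromosome 20. The input libraries were not analysed here, so a difference between the clones in DNA copies cannot be told apart from a difference in the marks.

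**Figure D3:**
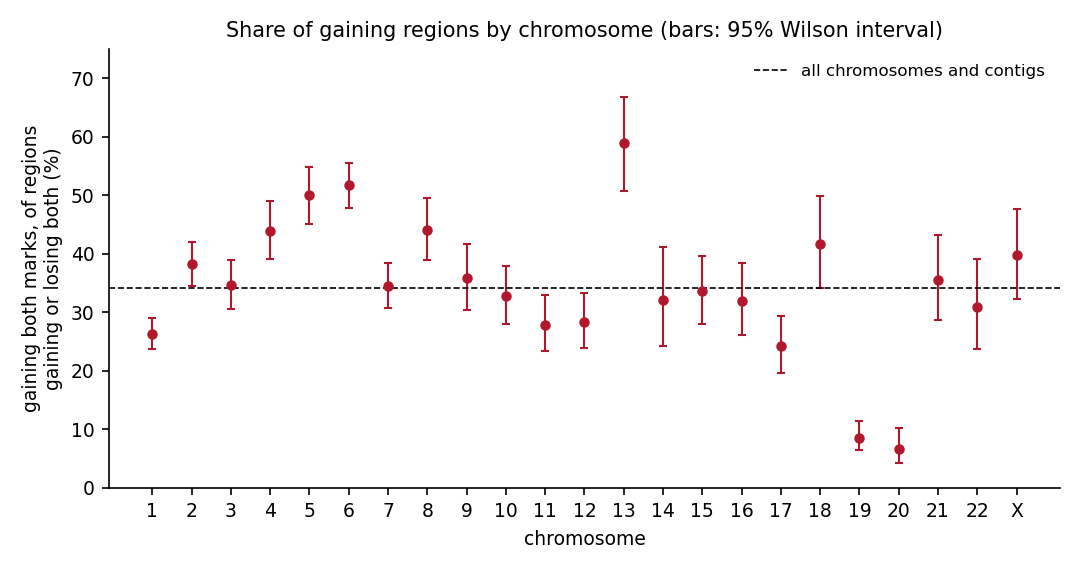
Share of gains (vertical axis, %) among TSS-distal regions that gained or lost both marks, for each chromosome (horizontal axis), with Wilson 95% intervals as bars and the overall share of 34.1% as a dashed line. Chromosomes 19 and 20 sit at 8.58 and 6.59%, and chromosome 13 at 59.0%.

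The 10 regions with the highest H2A.Zac ratios lay 211 to 1181 kb from the nearest protein-coding TSS, between genes or in noncoding genes. The highest, 126 with an H2A.Z ratio of 15.7, belonged to chr13:72170322-72171297, intergenic and 303 kb upstream of DACH1, a developmental transcriptional regulator and tumor suppressor. The next was chr2:83694704-83695827, with a ratio of 122, intergenic and 764 kb from SUCLG1, a gene of the citric acid cycle. The region chr2:185949468-185952095 (107) was in an intron of the noncoding ENSG00000287129, 211 kb from FSIP2, a sperm tail gene. On chromosome 16, chr16:64390176-64392149 (104) was in an intron of the noncoding ENSG00000259846, 734 kb from the cadherin gene CDH11. The rest of these 10, besides the NDUFA4 and ZNF608 regions shown above, lay 483 kb from CNTNAP2, a neurexin family gene (95.4), 1181 kb from the protocadherin gene PCDH10 (94.0) and 970 kb from NXPH1, which encodes a neurexin ligand (93.2).

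By H2A.Z, a different set led. The highest H2A.Z ratio, 53.4 with an H2A.Zac ratio of 78.5, belonged to chr5:173323448-173325529, in an intron of STC2 and 2.92 kb from its TSS. The second, 43.1, was chr1:233635830-233637332, in an exon of the potassium channel gene KCNK1, with an H2A.Zac ratio of 34.1. The widest region, 22000 bp at chr5:173846503-173868502, held 8 separate stretches of gained H2A.Z and lay 19.8 kb upstream of CPEB4, which encodes an RNA-binding regulator of translation. Its neighbor chr5:173833709-173844834 was the second widest at 11.1 kb.

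Inside genes, the gained regions were spread thinly with a few dense spots. They fell in 1046 protein-coding genes, of which 811 held 1 and 79 held at least 3. RXFP1, the receptor of the hormone relaxin, held the most. Its 338-kb body at chr4:158315311-158653372 had 11 gained regions among 18 TSS-distal H2A.Zac regions and none that lost both marks, with H2A.Zac ratios from 19.2 to 48.3 (median 30.6) and H2A.Z ratios from 3.62 to 17.8. GPC6, a cell surface proteoglycan of the glypican family, had 9 of 15, with H2A.Zac ratios from 8.32 to 52.7. A gained H2A.Zac region also overlapped the TSS window of both RXFP1 and GPC6.

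NFIA, a transcription factor gene, had 8 of 59 and in addition 6 regions that lost both marks. Gain and loss occurred in the same gene body in 153 of the 1046 genes. MAP3K5, a stress-activated kinase gene, and PTPN14, a tyrosine phosphatase gene, had 6 each and no loss. Over all genes, 8.69% of TSS-distal H2A.Zac regions lost both marks. The absence of losses among the few regions of MAP3K5, PTPN14 or RXFP1 thus says little. With ties, the next 7 genes had 5 each, namely the synaptic adhesion genes ADGRB3 and CADM2, the zinc finger genes HIVEP3 and RREB1, LIN28B, whose product blocks maturation of the microRNA let-7, and the unnamed ENSG00000250349 and ENSG00000285218. Of these, HIVEP3 also held 2 regions that lost both marks and ENSG00000285218 held 1.

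When gained regions within 12500 bp of each other were linked, they formed 2434 runs, 2147 of them a single region and 59 with 3 or more, which together held 209 regions. The largest run was in GPC6, 9 regions over 42.3 kb at chr13:93248320-93290660. The second had 8 regions over 27.4 kb at chr13:80577011-80604375 in a stretch without genes, 236 kb from SPRY2, an inhibitor of growth factor signaling, with H2A.Zac ratios from 3.67 to 38.1. The third had 7 regions over 38.6 kb at chr6:155671910-155710518, 216 kb from the NADPH oxidase gene NOX3. No region that lost both marks lay within any of these runs. The runs are short, and over all genes 8.69% of TSS-distal H2A.Zac regions lost both marks, so this absence says little.

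Gene groups were compared by the share of gained regions among all TSS-distal H2A.Zac regions whose nearest protein-coding TSS belonged to the group, 4.44% (4.29 to 4.61%) over all genes. The share that lost both marks was 8.69% (8.47 to 8.92%) over all genes. Neuronal adhesion and axon guidance genes had 27 of 350 regions, 7.71% (5.36 to 11.0%), from 11 of 51 genes, and 52 regions that lost both marks, 14.9% (11.5 to 19%). Of the 27, 8 were nearest to CNTNAP2, which had 16 of the 350 regions and none that lost both marks. Without this gene, left out after the data had been seen, the gained share was 19 of 334, 5.69% (3.67 to 8.71%), an interval that includes the share over all genes, and the lost share 15.6% (12.1 to 19.8%), above the 8.69% over all genes. The 4 highest gains of the group all lay 396 to 483 kb upstream of CNTNAP2, with H2A.Zac ratios of 80.8, 85.0, 86.3 and 95.4. Homeobox genes outside the HOX clusters had 21 of 348, 6.03% (3.98 to 9.05%), among them 1 near MEIS1, a HOX cofactor gene, with a ratio of 36.6. AP-1 and early growth response genes had 11 of 200, 5.50% (3.10 to 9.58%), including ATF3 with a ratio of 24.7 and a pair of regions at FOSL2 with 21.8 and 29.3.

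For genes of the red cell and platelet lineages, each interval of the gained share included that over all genes. Erythroid transcription factor genes had 4 of 133, 3.01% (1.18 to 7.48%), and 14 that lost both marks, 10.5% (6.37 to 16.9%). The 4 lay in BCL11A (ratio 17.8), in MYB (16.7), near TAL1 (11.7) and near LMO2 (5.36), all regulators of blood cell identity. Globin and red cell membrane genes had 7 of 113, 6.19% (3.03 to 12.2%). Of these 7, 4 were nearest to GYPC, and without this gene the share was 3 of 96, 3.1% (1.07 to 8.79%). Megakaryocyte genes had 2 of 68, 2.94% (0.810 to 10.1%), 1 of them in ITGA2B, the platelet integrin, with a ratio of 13.8. Heme biosynthesis genes had 0 of 22, which allows a share of up to 14.9% by the Wilson interval.

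In the remaining groups, too, each interval of the gained share included that over all genes. The lost share differed for the MYC network and, only with CDK6 included, for the G1 regulators. HOX cluster genes had 3 of 64, FOX and SOX genes 18 of 387, and GATA factor genes 2 of 51, 1 in an intron of GATA6 and 1 in intergenic DNA 103 kb upstream of it. MYC network genes had 4 of 118 and only 1 region that lost both marks, 0.847% (0.150 to 4.64%), below the 8.69% over all genes. BCL2 family genes had 4 of 121 and EP400/TIP60 subunit genes 2 of 51, near ACTL6A and EPC2. G1 cyclin and CDK inhibitor genes had 1 of 75, 1.33% (0.236 to 7.17%), in CDK6. They also had 12 regions that lost both marks, 16.0% (9.40 to 25.9%), above the 8.69% over all genes. Of these 12, 3 were nearest to CDK6. Without this gene, left out after the data had been seen, the lost share was 9 of 67, 13.4% (7.23 to 23.6%). That interval includes the share over all genes. H2A.Z genes and their exchange factors had 0 of 14. The intervals are not adjusted for the 16 groups compared, and regions next to each other, such as those upstream of CNTNAP2, are not independent.

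At the genes named by the study, the region of DACH1 shows how the rule bears on what is counted. Within 100 kb of the DACH1 TSS, 9 TSS-distal H2A.Zac regions were gained, with ratios from 16.9 to 105 and a median of 58.9, and none was lost or unchanged. None of the 9 met the H2A.Z condition: 8 touched no gained H2A.Z region, and the other was covered by 13.1%. The 4 regions that gained both marks and have DACH1 as their nearest protein-coding gene lay 303 to 629 kb from it, with H2A.Zac ratios of 11.9, 45.3, 46.0 and 126. Gain of H2A.Zac at TSS-distal regions near this gene was thus listed largely without a gain of H2A.Z. Over all TSS-distal gained H2A.Zac regions, 18.2% met the H2A.Z condition. The study reports that both marks appear at DACH1 in the mutant cells. In all, 11 gained H2A.Zac regions were listed there, and those near a TSS are not counted here.

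Near CCND1, which encodes cyclin D1, 1 region gained both marks and 1 lost both within 100 kb. The gain, chr11:69700697-69701407, was 59.5 kb away in an intron of the growth factor gene FGF19, with an H2A.Zac ratio of 34.9. The loss, chr11:69638289-69639738, was 1.42 kb upstream of the CCND1 TSS, with a ratio of 13.3. Near TERT, the telomerase gene, no region gained or lost both marks, and the 2 TSS-distal H2A.Zac regions that were lost did not meet the H2A.Z condition.

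The promoters of the nearest genes were examined next. The 2768 regions on annotated chromosomes had 1826 nearest protein-coding genes, and the TSS window of 35.7% of them (33.5 to 37.9%) overlapped a gained H2A.Zac region, against 34.6% of all 20046 protein-coding genes. A lost H2A.Zac region overlapped 15.5% (13.9 to 17.2%), against 16.8%. Among genes nearest to regions that lost both marks, 26.4% (24.9 to 27.9%) had a lost H2A.Zac region at the TSS. For the gained regions, then, both intervals included the share over all genes. Gene expression was not analysed here.

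Sequence composition set the gained regions apart from most of the others. The 300 bp around their centers had a median GC content of 46.3%, against 51.0% for regions that lost both marks and 49.7% for unchanged ones. The mean was 4.02 percentage points lower than in regions that lost both marks (95% confidence interval, 3.59 to 4.44), and the median was lower on 21 of 23 chromosomes. Against regions that gained H2A.Zac without H2A.Z, the mean was 1.60 points higher (1.19 to 2.00). Windows with at least 12 CpG dinucleotides, a count chosen after the data had been seen, made up 16.0% of the gained regions, 15.7% of the lost, 25.1% of the unchanged and 6.46% of those without H2A.Z.

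A total of 19 motifs, each a short string searched on both strands of the 300-bp windows, were compared. The GATA motif stood out. It was present in 960 of the gained regions, 34.1% (32.4 to 35.9%), in 19.7% (18.7 to 20.8%) of those that lost both marks and in 24.5% (23.8 to 25.2%) of unchanged ones. The difference from regions that lost both marks was 14.4 percentage points (12.4 to 16.5) and had this sign on 22 of 23 chromosomes. Regions that gained H2A.Zac without H2A.Z had a like share, 34.9%, with a difference of -0.72 points (-2.74 to 1.34), and those that gained it over unchanged H2A.Z had less, 25.6%. Of all TSS-distal H2A.Zac regions 26.7% held the motif, and of all 35116 RefSeq promoters of the same length, 16.3%. In the classes by H2A.Zac ratio, the share was 37.8, 32.4, 32.3 and 34% from the lowest to the highest ratio.

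The E-box CACGTG, the site bound by MYC and related factors, showed the opposite. It was present in 2.74% of the gained regions (77 of 2812), 8.28% of the lost and 5.13% of the unchanged. The difference from the lost regions was -5.54 points (-6.48 to -4.57), with this sign on 21 of 23 chromosomes. The share was 2.78% in regions that gained H2A.Zac without H2A.Z and 2.68% in those that gained it over unchanged H2A.Z, with intervals of the difference that included 0 for both. Among all TSS-distal H2A.Zac regions 5.84% held it, and 7.26% of RefSeq promoters.

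Against regions that lost both marks, the other motifs differed by fewer percentage points. Compared with regions that lost both marks, the gained regions more often held the AP-1 motif TGANTCA (13.5 against 9.33%), the FOX motif TGTTTAC (7.18 against 4.10%), the homeobox motif TAATTA (7.47 against 4.71%), the CCAAT box CCAATCA (3.95 against 2.56%) and the ETS motif CCGGAAG (3.77 against 2.94%), the last by 0.82 points with an interval that only just excludes 0 (0.020 to 1.70). They less often held the CTCF motif AGGGGGC or AGGTGGC (9.10 against 13.5%), the HIF motif ACGTGC (3.38 against 6.20%), the CEBP motif TTGCGCAA or TTGCATCA (0.462 against 2.67%), the KLF motif CCACACCC (2.49 against 3.96%) and the E2F motif TTTCCCGC or TTTGGCGC (0.249 against 0.847%). Over all windows, the intervals of these 10 differences excluded 0, and the sign was the same on 15 to 20 of the 23 chromosomes. Some did not hold when windows were grouped by GC content. The homeobox difference was -3.25 points (-7.82 to 1.17) under 40% GC and 0.87 (-0.95 to 2.81) at 40 to 50%. It was 1.63 (0.33 to 3.30) at 50 to 60% and 1.55 (0.29 to 4.03) at 60% or more. The CCAAT box difference was negative under 40% GC. The CTCF difference was 1.21 points (-1.03 to 3.32) under 40% GC and -0.017 (-1.77 to 1.84) at 40 to 50%. It was -4.31 (-6.92 to -1.42) at 50 to 60% and -2.44 (-8.31 to 3.92) at 60% or more. The KLF and E2F differences were positive under 40% GC. Over all windows, 6 motifs were more frequent, 6 less frequent, and 7 had intervals that included 0: TAL1 E-box CAGATG, RUNX TGTGGT, GC box GGGCGG, SOX ACAATGG or ACAAAGG, TEAD ACATTCC, octamer ATGCAAAT and NF-kB GGANTTTCC. Against unchanged regions the order was another: the GC box, at 12.9 against 18.3%, differed by -5.33 points (-6.68 to -3.90), CTCF by -3.00 and AP-1 by 2.62, all more than the E-box at -2.39. These differences are over all GC contents, and that of the GC box was smaller within each GC class. Of the 10 motifs listed first, FOX, ETS and CEBP did not set the gained regions apart from unchanged ones. Their differences were 0.89 (-0.09 to 1.98), 0.09 (-0.63 to 0.91) and -0.16 points (-0.40 to 0.19). For the others of the 10, the interval against unchanged regions excluded 0. Against regions that gained H2A.Zac over unchanged H2A.Z, the GC box differed by -8.09 points (-9.83 to -6.31) and GATA by 8.51 (6.31 to 10.7). The E-box and HIF strings can overlap, and 34 gained regions held both, of 95 with the HIF motif. Among regions that lost both marks, 193 of the 337 with the HIF motif also held the E-box. GATA and TAL1 strings can overlap as well, with 202 gained regions holding both. Among all TSS-distal H2A.Zac regions, the shares ranged from 0.589% for E2F to 19.2% for RUNX, apart from GATA.

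**Figure D4:**
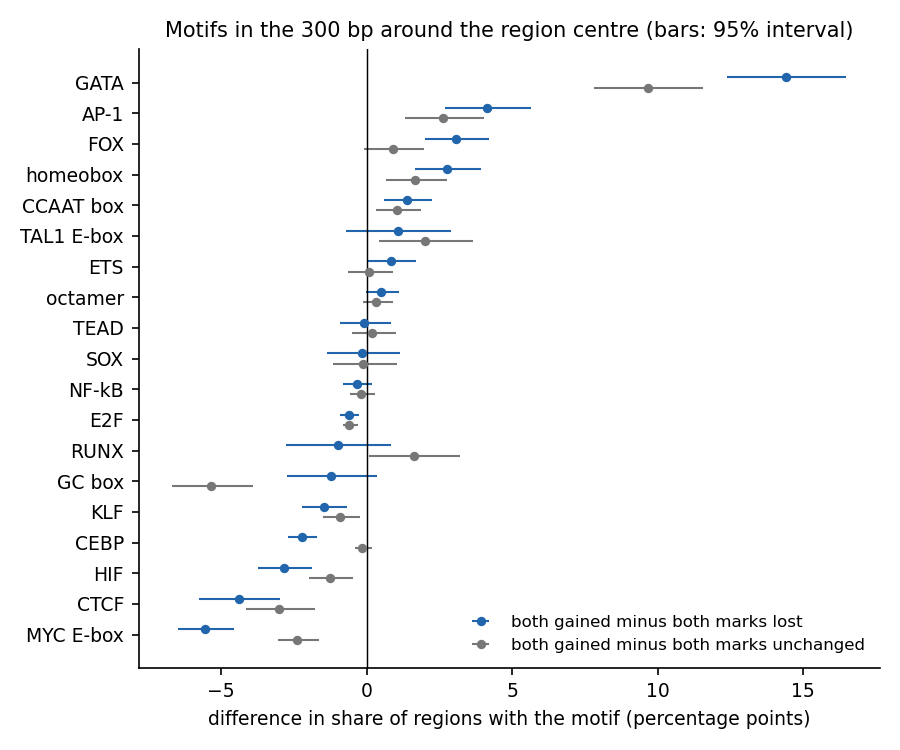
Difference in the share of regions that hold each of 19 motifs (horizontal axis, percentage points), for regions that gained both marks minus regions that lost both marks (blue) and minus unchanged regions (grey), with 95% intervals as bars. GATA lies at 14.4 and 9.67 points and the MYC E-box at -5.54 and -2.39.

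Because GC content moves with these classes and an AT-rich motif such as GATA is more likely in AT-rich DNA, the shares were set side by side in classes of GC content. Windows under 40% GC held the GATA motif in 49.4% of gained and 41.5% of lost regions, those of 40 to 50% in 39.8 and 28.3%, and those of 50 to 60% in 22.4 and 13.6%. The differences were 7.96 (1.88 to 13.9), 11.4 (8.02 to 14.8) and 8.90 points (5.65 to 12.3). At 60% GC or more it was 6.06 and 4.53%, with an interval of the difference that includes 0 (-1.26 to 5.28). The E-box was less frequent in gained regions in each class, with 0.829 against 4.21%, 2.4 against 6.66%, 4.49 against 8.99% and 3.79 against 12.2%, and no interval of these differences included 0. The difference in GATA against regions that lost both marks was thus smaller in each GC class than the 14.4 points over all regions. The GC box, a GC-rich string, had a difference from lost regions whose interval included 0 over all windows, but gained regions held it more often where GC was high, with 18.6 against 13.3% at 50 to 60% GC, a difference of 5.37 points (2.32 to 8.64), and 60.2 against 43.5% at 60% or more, a difference of 16.7 points (9.89 to 23.3). In the 2 lower classes the intervals included 0. Compared with unchanged regions, its shares lay close together in each class, at 0.663 against 1.21%, 5.29 against 5.94%, 18.6 against 17.5% and 60.2 against 62.1% from low to high GC, and in each the intervals of both shares overlapped.

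**Figure D5:**
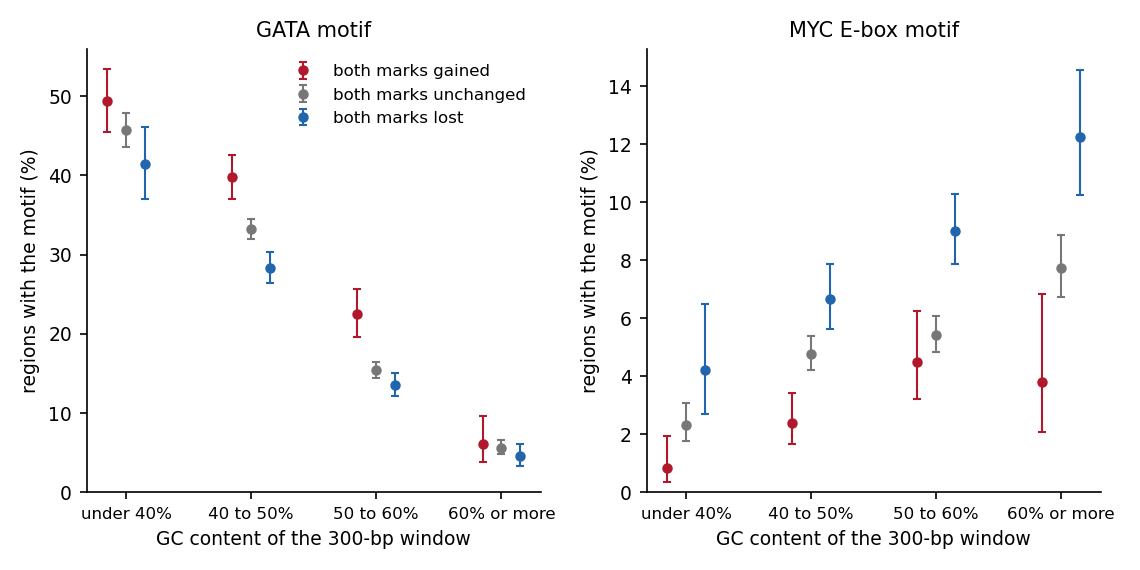
Share of regions with the GATA motif (left) and the MYC E-box (right) (vertical axes, %) in 4 classes of GC content of the 300-bp window (horizontal axes), for regions that gained both marks, unchanged regions and regions that lost both marks, with Wilson 95% intervals as bars. Within each class the GATA share is highest and the E-box share lowest in regions that gained both marks, although some of the bars overlap, among them those for GATA under 40% and at 60% GC or more.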

How the data were processed

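ChIP-seq for H2A.Z and H2A.Zac was analysed from the 6 region lists deposited by the authors, 1 each for regions lost, gained and unchanged per mark. Per the methods, reads were aligned to hg38 with Bowtie2 2.4.5, peaks were called with MACS2 2.2.7.1, replicates were merged, the lines were compared with MACS2 bdgdiff, and regions were kept where reproducible peaks (IDR threshold, 0.05) made up 25% of the length. The score deposited by the authors for each region is the log10 likelihood ratio, which exceeds 3 in every gained or lost region. It depends on depth and is not a fold change, and across the gained regions it was correlated with width. Replicates, input libraries, signal tracks and expression were not analysed here.

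TSSs and gene bodies came from GENCODE release 44, later than the release named in the methods, and 44 of the regions lie on contigs that this annotation file does not cover and for that reason count as distal. Distance was measured from the region's edge, and context and sequence at its center. Intervals were Wilson for shares, Newcombe for differences of shares, order statistics for medians and normal for mean GC. Named are the 10 regions with the highest H2A.Zac and the 5 with the highest H2A.Z ratio, the protein-coding genes holding most regions, the largest runs, the widest region, regions near CCND1, TERT and DACH1, and up to 4 per gene group, of which the text gives a part, and the result of 1 of the 16 gene groups is not reported here. The regions, gene groups and motifs were chosen with earlier results of these data known. Interval arithmetic was checked against bedtools 2.31.1, and motif search on simulated data. Alternatives were overlaps of 1 bp and 50%, ratio cutoffs of 5 and 10, other TSS windows, other chromosome sets, merging, whole-region sequence and GC classes. Python 3.11.15, numpy 2.4.6, pandas 2.3.3, scipy 1.17.1, pysam 0.24.0, matplotlib 3.10.9 and samtools 1.23.1 were used.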

Additional observations from a re-analysis of the deposited data

How the results depend on the processing

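Of 695 values recomputed under alternatives, 534 moved by less than their interval or, for the number of regions, by less than 1.5 times, 156 moved by more, and 5, all differences whose interval had excluded 0, changed sign. Differences whose interval had included 0 also changed sign under some alternatives, namely those of TAL1, RUNX, SOX, TEAD, the octamer and the GC box, the last to 0.18 points with protein-coding TSSs and to 0.32, 5.37 and 16.7 in the 3 upper GC classes. No paired analysis was possible because the lists hold 1 comparison of merged replicates per mark, and for the same reason no replicate could be left out. The share of repeat bases was not run, since the hg38 sequence used here marks no repeats. With 1 bp of overlap the gained share was 35.3% and the share touching unchanged H2A.Z 47.0%, and with 50% overlap they were 32.4 and 35.2% and the GC difference from lost regions was -4.46 points. At a ratio of at least 10, 1709 regions remained, with a median TSS distance of 17.8 kb, 54.0% in introns, 18.5% with another within 10 kb and 31.9% touching unchanged H2A.Z. The median TSS distance was 18.0 kb with a 4-kb window. With the TSSs of all transcripts it was 17.1 kb, the gained share 32.7%, the intron share 53.9%, median GC 45.7%, the GC difference -4.62, the share touching unchanged H2A.Z 41.0% and the GATA share 36.6%. With protein-coding TSSs only, the median distance to any gene TSS was 11.6 kb, the intron share 53.9%, median GC 47%, the GC difference -3.52 and the share touching unchanged H2A.Z 46.2%. Without chromosomes 19 and 20 the gained share was 36.7%. Merging regions within 1 kb left 14.8% with another within 10 kb, and 41.7% had one within 50 kb. Over whole regions GC was 45.1%, the GC difference -4.54, and GATA and the E-box were present in 70.4 and 10.7%. By GC class, from low to high, GATA was present in 49.4, 39.8, 22.4 and 6.06%, and the E-box in 0.829, 4.49 and 3.79% in the lowest class and the 2 highest. In windows under 40% GC the differences from lost regions changed sign for E2F (0.28 points), CTCF (1.21), KLF (0.55), the CCAAT box (-0.62) and the homeobox motif (-3.25), and the cause was not tested.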

Other observations

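Most gained regions were spread over the genome, and some stretches held many. Counted after the data had been seen, 1-Mb bins held 5 or more of them in 117 of the 1272 bins that held any, and these bins contained 775 of the 2768 regions on chromosomes 1 to 22 and X. The bin with the most, 19 of its 37 TSS-distal H2A.Zac regions (51.4%) with none that lost both marks, was chr1:191000001-192000000. Its nearest protein-coding genes are RGS18, a regulator of G protein signaling of the platelet lineage, and BRINP3, a gene of the nervous system, and the H2A.Zac ratios ran from 4.64 to 84.5. In chr13:93000001-94000000, around GPC6, 10 of 14 regions (71.4%) gained both marks. Of the 10 bins with the most gained regions, 8 held no region that lost both marks, although both kinds occurred together in 803 bins. The 10 bins were chosen for their gains, and over all genes 8.69% of TSS-distal H2A.Zac regions lost both marks. Bins were not counted in this way for the other classes. Another region of the same class lay within 10 kb for 21.6% of gained regions, against 28.3 to 45.9% in the other classes, which are larger.

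On chromosome 5, a 545-kb stretch from STC2 to the region upstream of CPEB4, chr5:173323448-173868502, held 12 gained regions that covered 52.6 kb in sum, and it was chosen for the widest region and the one with the highest H2A.Z ratio, which lie in it. They were 12 of its 21 TSS-distal H2A.Zac regions, with no region that lost both marks. Their H2A.Zac ratios had a median of 36.1 (10.3 to 88.5) and their H2A.Z ratios a median of 20.4 (9.08 to 53.4), values that this choice favours.

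Unplaced and unlocalized contigs, for which the annotation used here lists no genes, held 44 gained regions on 17 contigs, 1.56% (1.17 to 2.09%), against 0.350% (0.224 to 0.546%) of regions that lost both marks, 0.715% of unchanged regions, 0.752% of those that gained H2A.Zac without H2A.Z and 1.06% (0.785 to 1.42%) of those that gained it over unchanged H2A.Z, an interval that overlaps that of the regions gaining both. Their H2A.Zac ratios had a median of 18.0 and reached 84.3. The contig KI270742v1 held 9 of them, KI270751v1 6 and KI270744v1 5.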
